A study of Rattus norvegicus with 7 samples.

Results

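Motile cilia genes were described in RNA sequencing libraries of hippocampus and hypothalamus from male Sprague Dawley rats. The members were gene symbols of families that hold parts of the beating cilium, with 5 Spag genes outside it: Dnah, Dnai and Dnali1 (dynein arms), Rsph (radial spokes), Tekt (tektins), Spag (sperm-associated antigens), Foxj1, Ccdc39, Ccdc40, Hydin, Spef1, Spef2, Ak7 and Drc1. Of 15892 symbols found in both tables, 26 met this rule, which goes by name and not by level. It was chosen with earlier results of these data known. All animals were 2 months old when assigned to the diet and were fed an omega-3 diet with docosahexaenoic acid (DHA) for 6 weeks, and regular chow controls were not analysed here. Hippocampus had 4 libraries and hypothalamus 3, each from whole dissected tissue, and the labels do not say whether libraries of the tissues share animals. Where several loci carried a symbol, the locus with the highest mean FPKM (fragments per kilobase of transcript per 1000000 fragments) was used.

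Motile cilia are built around a ring of microtubule doublets with a central pair. Dynein arms walk along the neighbouring doublet and bend the cilium, the nexin-dynein complex and the CCDC39 and CCDC40 ruler set the spacing of these parts, and radial spokes relay signals from the central pair. In the brain these cilia are carried by ependymal cells, which line the ventricles and move cerebrospinal fluid. FOXJ1, a forkhead factor, and the RFX factors activate the genes of this structure.

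In these libraries 11 of 17 compared genes for parts or assembly of the cilium were higher in hypothalamus without overlap, as were 24.4% of all compared symbols, and Foxj1 was higher in hippocampus. Of the 11, Dnah1, Dnai2 and Dnali1 reached the minimum level for comparison through hypothalamus alone. Rsph1, a radial spoke gene, stood at 16.8 ± 5.40 FPKM in hypothalamus (SD, n = 3) against 2.54 ± 0.871 FPKM in hippocampus (SD, n = 4). For Foxj1 the mean was 52.7 ± 3.59 FPKM (SD, n = 4 hippocampus libraries) against 24.7 ± 10.7 FPKM (SD, n = 3 hypothalamus libraries). The tissues come from separate tables, treated here as separately normalized, so tissue and table cannot be told apart, no test was made across them, and every tissue difference is a description. In whole tissue, fewer ciliated cells, less RNA per cell and expression in other cells cannot be told apart either.

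Promoters of the members were read from the RefSeq table of assembly GRCr8, which gives 250 bases before to 50 bases after the start of each gene. Of the 25 members with every value marked OK, 18 had an entry. The 4 printed here are those of the compared members with the highest mean FPKM that hold a paired RFX motif, and at all 4 genes the hypothalamus libraries lay above those of hippocampus without overlap. Each runs 5′ to 3′ along the gene's strand. Capitals mark the match to the paired RFX motif, searched on both strands as the arm GTNNCC, 1 to 3 bases of any kind and the arm GNAAC.
Spag6 promoter, GRCr8 chr17:86261825-86262124, plus strand: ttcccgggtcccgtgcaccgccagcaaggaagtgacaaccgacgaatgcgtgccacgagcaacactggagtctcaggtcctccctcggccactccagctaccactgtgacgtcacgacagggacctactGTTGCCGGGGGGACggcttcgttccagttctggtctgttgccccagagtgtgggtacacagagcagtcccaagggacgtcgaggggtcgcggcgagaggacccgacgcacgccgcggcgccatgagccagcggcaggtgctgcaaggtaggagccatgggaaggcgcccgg
Tekt4 promoter, GRCr8 chr10:14992034-14992333, plus strand: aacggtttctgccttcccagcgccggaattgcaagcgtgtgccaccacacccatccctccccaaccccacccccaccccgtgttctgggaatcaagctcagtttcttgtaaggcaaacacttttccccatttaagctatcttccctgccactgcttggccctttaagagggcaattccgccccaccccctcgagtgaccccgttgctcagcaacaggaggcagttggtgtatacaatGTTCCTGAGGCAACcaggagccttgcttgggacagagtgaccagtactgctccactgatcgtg
Dnai1 promoter, GRCr8 chr5:61525829-61526128, plus strand: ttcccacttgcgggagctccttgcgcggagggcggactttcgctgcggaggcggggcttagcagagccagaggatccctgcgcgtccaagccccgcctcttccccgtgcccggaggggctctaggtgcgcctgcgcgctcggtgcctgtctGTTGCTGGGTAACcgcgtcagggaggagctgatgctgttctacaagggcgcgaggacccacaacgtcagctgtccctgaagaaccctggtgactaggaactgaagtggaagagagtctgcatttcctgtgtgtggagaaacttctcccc
Tekt2 promoter, GRCr8 chr5:143907675-143907974, minus strand: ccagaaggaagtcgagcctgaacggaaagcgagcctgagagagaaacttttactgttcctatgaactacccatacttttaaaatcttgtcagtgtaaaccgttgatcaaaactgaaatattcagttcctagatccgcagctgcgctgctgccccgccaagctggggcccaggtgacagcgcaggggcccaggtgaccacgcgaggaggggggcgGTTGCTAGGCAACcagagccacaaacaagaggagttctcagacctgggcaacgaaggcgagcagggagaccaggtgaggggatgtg
The matches lay at bases -121 to -108 (Spag6), -13 to 1 (Tekt4), -99 to -87 (Dnai1) and -36 to -24 (Tekt2), counted from the gene's start at 1 with no base 0. The matched letters were GTTGCCGGGGGGAC in Spag6, GTTCCTGAGGCAAC in Tekt4, GTTGCTGGGTAAC in Dnai1 and GTTGCTAGGCAAC in Tekt2. Dnai2 held the same GTTGCTAGGCAAC at bases -62 to -50.

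A paired RFX motif occurred in 6 of the 18 member promoters (33.3%) and in 1459 of all 33469 promoters of the same length (4.36%). The single RFX motif GTTGCC, which can overlap the paired form, was present in 9 of 18 member promoters (50%) and in 12.2% of all promoters. The forkhead motif TGTTTAC was present in 3 of 18, those of Dnali1, Spef2 and Tekt3, and in 3.78% of all promoters. In a list of other motile cilia genes, described further on, 27 of 50 promoters (54%) held the paired form, 23 (46%) the single form and 2 (4%) the forkhead motif. These shares describe letters in a window and were not tested. Among members called at least 2-fold higher in hypothalamus by the rule given further on, 3 of 7 promoters held the paired form. Foxj1, Rsph1, Spag1, Spag11b, Spag11c, Spag16 and Tekt5 had no entry.

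**Figure D1:**
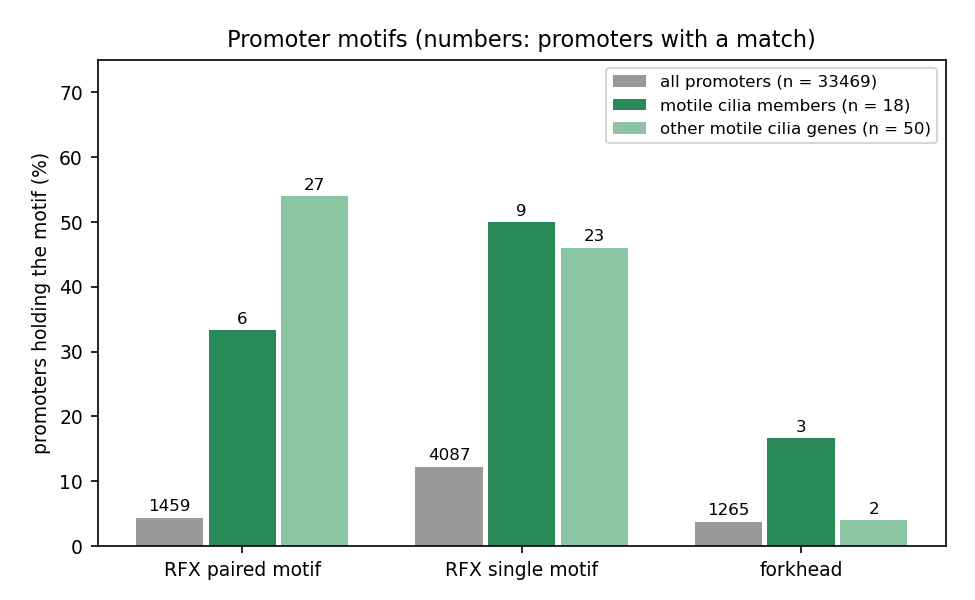
Share of promoters (vertical axis, percent) that hold each motif, for all promoters in the RefSeq table, the 18 member promoters and the 50 promoters of other motile cilia genes. Numbers above the bars count promoters with a match. The paired RFX motif stood at 33.3% and 54% in the cilia gene sets and at 4.36% overall.

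Summed FPKM ranged from 370020 to 391349 per hippocampus library and from 443335 to 471484 per hypothalamus library, and absolute depth is unknown. Levels are given as deposited. For the tissue difference, the FPKM of symbols in both tables were scaled in each library to add up to 1000000. The difference is the mean log2(rescaled FPKM + 1) in hippocampus minus that in hypothalamus, a scale that understates the change of low genes. A gene was compared when its mean was at least 1 FPKM in either tissue, and it was called when the libraries of the tissues did not overlap and the difference was at least 2-fold. Over all 10736 compared symbols, 13.4% were called higher in hypothalamus and 14.5% in hippocampus, and the median difference was 0.05.

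Of the 26 members, 25 had every value marked OK and 19 of these were compared. By the same rule, 8 of the 19 were called higher in hypothalamus, against the 13.4% of all compared symbols, and 1, Foxj1, was called higher in hippocampus. With a pseudocount of 5 in place of 1, 3 of the 19 were called towards hypothalamus (9.14% of all compared symbols), and Ak7, Dnah1, Dnai1, Tekt2 and Tekt4 were no longer called. Without the 2-fold requirement, 11 lay apart towards hypothalamus (24.4% of all compared symbols did), 2 towards hippocampus (28.2% of all) and 6 overlapped. The median difference of the 19 was −0.91. Dnah1, Dnai2 and Dnali1 reached 1 FPKM in hypothalamus alone, so for them passing the minimum already required a difference. Among the 16 members at 1 FPKM or more in hippocampus, 6 were called towards hypothalamus and the median was −0.73. Of all 10033 symbols at that level in hippocampus, 10.3% were called towards hypothalamus and the median was 0.12. With no minimum, 8 of 25 were called towards hypothalamus, where 9.5% of all 15805 symbols were, and 1 towards hippocampus, where 10.2% were. On that basis 11 of 25 lay apart towards hypothalamus (19% of all symbols) and 2 towards hippocampus (20.6% of all), and the median was −0.68.

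**Figure D2:**
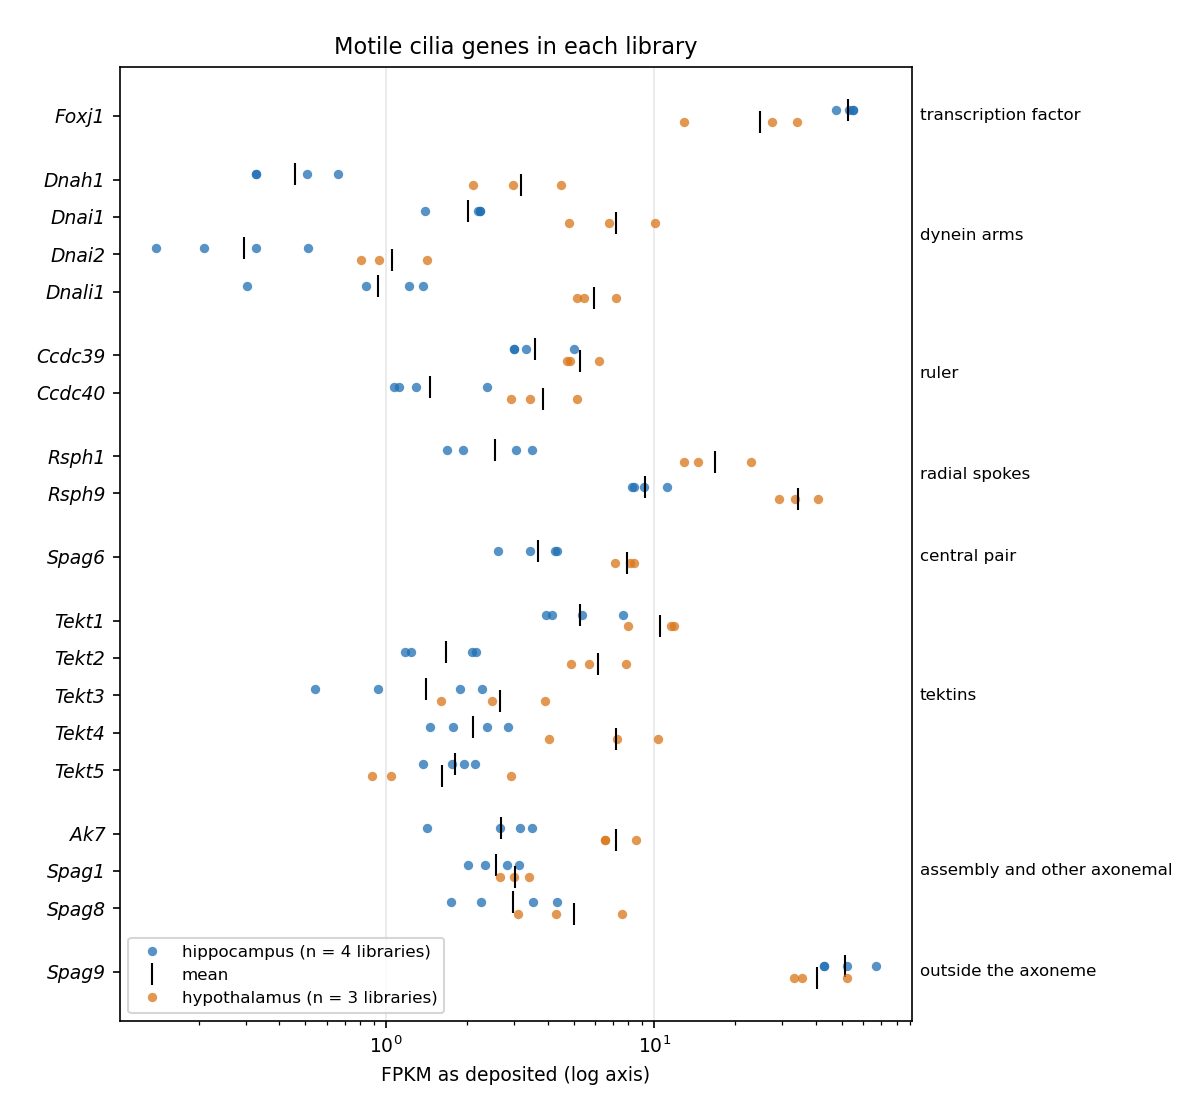
FPKM as deposited (horizontal log axis) of the 19 compared members, grouped by role. Points are libraries, 4 of hippocampus and 3 of hypothalamus, and the tick is the mean. Before rescaling, the hypothalamus points lie to the right of all hippocampus points for 12 genes, Tekt1 among them, and to the left of them for Foxj1, from 12.9 to 33.9 against 47.4 to 55.1 FPKM.

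Foxj1 and Spag9 had the highest mean FPKM of the compared members in hippocampus (52.7 and 51.2), which differed by less than their spread. For Foxj1, hippocampus replicates 1 to 4 read 54.9, 55.1, 53.2 and 47.4 FPKM, and hypothalamus replicates 1 to 3 read 12.9, 27.4 and 33.9 FPKM. The hippocampus libraries were the higher ones without overlap, with a difference of 1.48 on the log2 scale. Hypothalamus replicate 1 was the low library, and without it the difference was 1.09. Foxj1 was also the steadiest compared member over the hippocampus libraries, with an SD of 0.10 in log2(FPKM + 1), and the most variable one over the hypothalamus libraries, with an SD of 0.70. Its neighbour in the RefSeq assembly GRCr8 is Rnf157, whose values were not used here.

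The 4 compared dynein arm genes were higher in hypothalamus, but Dnah1, Dnai2 and Dnali1 were compared only because they passed 1 FPKM there, which leaves Dnai1 as the one whose direction the minimum did not favour. Dnah1, a heavy chain of the inner arm and thus a motor subunit, read 0.328, 0.505, 0.661 and 0.328 FPKM in hippocampus replicates 1 to 4 and 2.10, 2.98 and 4.49 FPKM in hypothalamus replicates 1 to 3. Dnali1, a light intermediate chain of the inner arm, read 1.38, 0.839, 1.22 and 0.303 FPKM in hippocampus and 5.46, 5.14 and 7.20 FPKM in hypothalamus. Neither gene had overlapping groups, and the differences were −1.84 and −2.09. Within 1000 bases of Dnah1 lies Bap1, at 39.3 to 47.8 FPKM in hippocampus and 33.3 to 41.4 FPKM in hypothalamus. The part of Bap1 in the Dnah1 values was not tested. In GRCr8 Dnali1 overlaps Gnl2, which read 8.57 to 10.2 FPKM in hippocampus and 12.4 to 15.7 FPKM in hypothalamus, and its part in the Dnali1 values was not tested.

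Dnai1 and Dnai2 encode the intermediate chains that anchor the outer arm. Dnai1 read 2.20, 2.24, 2.24 and 1.40 FPKM in hippocampus and 4.81, 6.78 and 10.1 FPKM in hypothalamus, a difference of −1.35. Dnai2 was lower, at 0.139, 0.210, 0.509 and 0.327 FPKM against 0.940, 0.805 and 1.42 FPKM, a difference of −0.91. Its groups did not overlap, and it was under 2-fold on the log2(rescaled FPKM + 1) scale, while its deposited means differed 3.56-fold. It was called in 4 of 20 alternatives: with a pseudocount of 0.1 (−1.52), without hippocampus replicate 3 (−1.07), without hypothalamus replicate 2 (−1.02) and against hippocampus replicate 2 alone (−1.10). Within 1000 bases of Dnai1 lies Fam219a, at 62.6 to 105 FPKM in hippocampus and 21.8 to 60.4 FPKM in hypothalamus. The part of Fam219a in the Dnai1 values was not tested. Other heavy chain genes of the Dnah series are not analysed here.

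Ccdc39 and Ccdc40 encode the partners of the ruler. Ccdc40 read 1.07, 1.12, 2.37 and 1.29 FPKM in hippocampus and 2.93, 3.44 and 5.15 FPKM in hypothalamus, apart but under 2-fold (−0.96). It was called in 5 of 21 alternatives: with a pseudocount of 0.1 (−1.11), without hippocampus replicate 3 (−1.18), without hypothalamus replicate 1 (−1.10), without replicate 1 of both tissues (−1.01) and against hippocampus replicate 2 alone (−1.24). Ccdc39 read 2.99, 2.98, 3.31 and 5.01 FPKM against 6.24, 4.85 and 4.71 FPKM, so that hippocampus replicate 4 reached into the hypothalamic range, and its difference was −0.26. Ccdc39 overlaps Ttc14 in the GRCr8 annotation, and Ttc14 read 2.38 to 3.54 FPKM in hippocampus and 1.36 to 4.28 FPKM in hypothalamus. Whether fragments were assigned by strand is not given in the sources used here, so the share of Ttc14 in the Ccdc39 values was not tested.

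The radial spoke genes showed large differences. Rsph1, a spoke head gene, read 3.04, 1.94, 3.50 and 1.68 FPKM in hippocampus and 12.9, 14.5 and 22.9 FPKM in hypothalamus, a difference of −2.28. Rsph9, another spoke head gene and the most abundant axonemal member, read 8.27, 8.42, 11.1 and 9.18 FPKM against 33.3, 29.1 and 40.6 FPKM, a difference of −1.56. The lowest hypothalamus library exceeded the highest hippocampus library by a wide margin at both. Rsph1 overlaps Slc37a1 in GRCr8, and Slc37a1 read 1.46 to 2.88 FPKM in hippocampus and 2.48 to 3.31 FPKM in hypothalamus. Its part in the Rsph1 values was not tested. Within 1000 bases of Rsph9 lies Mrps18a, at 61.5 to 92.0 FPKM in hippocampus and 76.5 to 89.7 FPKM in hypothalamus. The part of Mrps18a in the Rsph9 values was not tested. Rsph10b and Rsph6a met the naming rule in the hippocampus table alone, at 8.93 ± 1.83 and 0.435 ± 0.0705 FPKM (SD, n = 4), and are not counted as members.

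Spag6, Spag6l, Spag16 and Spef2 belong to the central pair apparatus. Spag6 read 4.33, 3.44, 4.27 and 2.62 FPKM in hippocampus and 8.41, 7.14 and 8.09 FPKM in hypothalamus, apart but under 2-fold (−0.77). The other 3 were under 1 FPKM in both tissues. Spag16 ranged from 0.159 to 0.531 FPKM over all 7 libraries and Spef2 from 0.181 to 0.368 FPKM. Spag6l, which shares its name and sequence family with Spag6, did not exceed 0.0836 FPKM, and reads shared between such copies could be split by the counting.

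Tektins are filament proteins of the doublet wall. Tekt2 read 2.17, 1.24, 2.08 and 1.17 FPKM in hippocampus and 4.90, 5.71 and 7.82 FPKM in hypothalamus, a difference of −1.42. Tekt4 read 2.38, 1.78, 2.85 and 1.45 FPKM against 7.27, 4.04 and 10.3 FPKM, a difference of −1.28. Both kept the groups apart. Tekt1, Tekt3 and Tekt5 overlapped after rescaling, with differences of −0.68, −0.57 and 0.49. Tekt1 read 3.94 to 7.63 FPKM in hippocampus and 8.0 to 11.8 FPKM in hypothalamus, which do not overlap as deposited. Tekt5 had 2 loci in hypothalamus, and the higher one read 0.889, 2.91 and 1.04 FPKM while the other read 1.54, 0.681 and 1.40 FPKM. With loci summed its difference turned to −0.32.

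Of the remaining axonemal members, Ak7, an adenylate kinase of the cilium, was called. It read 1.43, 3.16, 3.51 and 2.66 FPKM in hippocampus and 6.54, 6.55 and 8.52 FPKM in hypothalamus, a difference of −1.08. Alternatives such as other minimum levels left this value at −1.08 and could not change the call. With those among them, the call held in 16 of 22 alternatives. It was lost without hippocampus replicate 1 (−0.85), without hypothalamus replicate 3 (−0.99), without replicate 1 of both tissues (−0.89), against hippocampus replicate 2 alone (−0.84), with median-of-ratios scaling (−0.98) and with a pseudocount of 5 (−0.80). Spag1, which is needed to assemble dynein arms in the cytoplasm, was nearly level, with hippocampus at 2.58 ± 0.495 FPKM (SD, n = 4) and hypothalamus at 3.02 ± 0.370 FPKM (SD, n = 3). Spag8, a microtubule-associated protein gene, overlapped as well, from 1.74 to 4.32 against 3.11 to 7.59 FPKM. In all, 11 of the 17 compared axonemal members lay apart towards hypothalamus, 6 overlapped and none lay apart towards hippocampus, where 24.4% and 28.2% of all compared symbols lay apart in those directions.

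**Figure D3:**
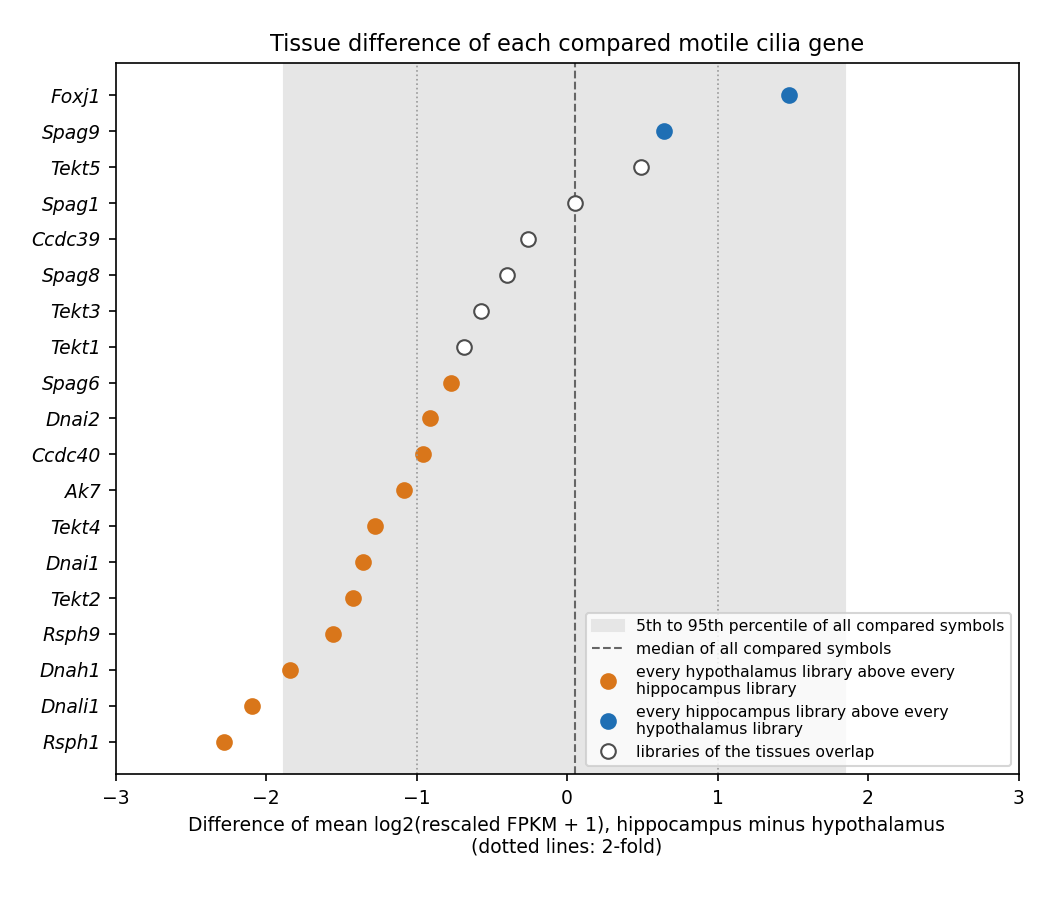
Difference of mean log2(rescaled FPKM + 1), hippocampus minus hypothalamus (horizontal axis), of the 19 compared members in order. Filled points have libraries that do not overlap between tissues, open points overlap, the grey band runs from the 5th to the 95th percentile of all compared symbols (−1.88 to 1.85) and the dashed line is their median (0.05). Rsph1 and Dnali1 lie below the band, and Foxj1 and Spag9 lie at the opposite end.

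The Spag symbols also hold genes whose products are not part of the axoneme. Spag9, a scaffold of JNK signalling, read 42.9, 52.1, 42.9 and 67.0 FPKM in hippocampus and 52.3, 35.4 and 33.2 FPKM in hypothalamus. After rescaling its groups lay apart by 0.64 towards hippocampus, and as deposited they overlapped. Spag5, a mitotic spindle gene, read 59.9, 90.0, 70.8 and 82.9 FPKM in hippocampus and 2.60, 2.38 and 2.27 FPKM in hypothalamus. Its value in hippocampus replicate 4 was marked FAIL, so it was left out of the comparison. Aldoc, an abundant astrocyte gene that lies within 1000 bases of it in GRCr8, read 403 to 751 FPKM in hippocampus and 791 to 978 FPKM in hypothalamus, and the part of Aldoc in the Spag5 values was not tested. Spag4 and Spag11b were listed at 0 in all 7 libraries, and Spag11c did not exceed 0.782 FPKM.

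Some genes that meet the rule today are listed in the tables under older symbols and are not among the 26. RefSeq matched 6 of them. Drc1, the nexin-dynein gene, is listed as Ccdc164 and read 3.84, 2.37, 4.69 and 2.95 FPKM in hippocampus and 8.63, 9.41 and 11.8 FPKM in hypothalamus, a difference of −1.17. Dnai3 and Dnai4, intermediate chain genes listed as Wdr63 and Wdr78, averaged 1.62 ± 0.492 and 5.72 ± 0.921 FPKM over the hippocampus libraries (SD, n = 4), against 4.91 ± 0.783 and 15.1 ± 1.28 FPKM over those of hypothalamus (SD, n = 3). Drc1, Dnai3 and Dnai4 were called higher in hypothalamus, the direction of the dynein arm members. Dnai3 (Wdr63) lost its call with median-of-ratios scaling (−0.99) and without replicate 1 of both tissues (−0.98). Rsph14, a spoke gene listed as Rtdr1, was under 1 FPKM on average in both tissues (0.138 to 0.388 and 0.569 to 1.008 FPKM, apart). Dnai7, listed as Casc1, read 2.97 to 4.71 FPKM in hippocampus and 6.00 to 6.68 FPKM in hypothalamus, which overlapped after rescaling but not as deposited.

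Spef1 was the exception among these 6. It encodes a microtubule-bundling protein of the central pair that also occurs outside motile cilia, and is listed as RGD1311267. It read 26.9, 24.5, 23.5 and 19.2 FPKM in hippocampus and 11.1, 12.2 and 13.9 FPKM in hypothalamus, a difference of 1.19. Like Foxj1, it was higher in every hippocampus library, but it was not called with FPKM as deposited (0.87). Hydin, a central pair gene, is not analysed here.

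A separate list of motile cilia genes that are no members was then examined. Of 119 symbols listed, 59 genes were found in both tables and 49 were compared. Of these, 20 were called higher in hypothalamus and 2 in hippocampus, against 13.4% and 14.5% of all compared symbols, with a median difference of −0.84. The 20 include Wdr63 and Wdr78. Of the 49, 13 reached 1 FPKM through hypothalamus alone, and 7 of the 20 are among them. Of the other 36, 13 were called towards hypothalamus and 2 towards hippocampus, with a median of −0.71, where 10.3% of all symbols at 1 FPKM in hippocampus were called towards hypothalamus. On the main scaling, the called genes with the largest differences towards hypothalamus were Tppp3, Iqcg and Cfap77, the last listed as RGD1564114. With FPKM as deposited they were Tppp3 (−2.68), Dynlrb2 (−2.27) and Ccdc153 (−2.16), and upper-quartile and median-of-ratios scaling gave the same genes. Iqcg and Cfap77 were under 1 FPKM on average in hippocampus, so the minimum favoured their direction.

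Tppp3, a tubulin polymerization promoting gene, read 27.1, 35.3, 42.2 and 21.8 FPKM in hippocampus and 200, 178 and 231 FPKM in hypothalamus, a difference of −2.41. Iqcg, a nexin-dynein gene, read 0.554 to 1.67 FPKM against 5.60 to 9.04 FPKM. Cfap77 read 0.193 to 0.796 FPKM against 2.57 to 7.17 FPKM. None of the 3 had overlapping groups.

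The 2 genes called towards hippocampus were Rfx3 and Dnal1. Rfx3, an RFX factor of ciliated cells that is also expressed outside them, read 7.03, 13.6, 8.14 and 14.5 FPKM in hippocampus and 1.34, 1.83 and 1.44 FPKM in hypothalamus, a difference of 2.74. Its relative Rfx2 went the other way, at 1.95, 1.68, 2.00 and 1.45 FPKM against 3.04, 4.58 and 6.12 FPKM, apart but under 2-fold (−0.90). Without replicate 1 of both tissues Rfx2 was called (−1.18). Thus Foxj1 and Rfx3 were higher in all hippocampus libraries and Rfx2 in all hypothalamus libraries. Dnal1, a light chain of the outer arm, read 20.7 to 43.0 FPKM in hippocampus and 0.134, 16.4 and 17.9 FPKM in hypothalamus. A further hypothalamic locus of Dnal1 read 23.4, 3.50 and 3.30 FPKM, and with loci summed its difference fell from 2.93 to 0.91 and was no longer called.

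Genes of intraflagellar transport build both motile cilia and the primary cilia that most brain cells carry. Of 32 compared, 3 were called higher in hypothalamus and 2 in hippocampus, no larger a share than the 13.4% and 14.5% of all compared symbols, and the median difference was −0.08. Without the 2-fold requirement, 12 lay apart towards hypothalamus (37.5%, against 24.4% of all compared symbols) and 7 towards hippocampus (against 28.2% of all). Of these, Rabl5, also known as Ift22, had the largest difference, at 10.6 to 13.9 FPKM in hippocampus and 34.3 to 48.8 FPKM in hypothalamus (−1.38). Ift46 and Ift27 followed, with differences of −1.30 and −1.11. Ift57 led in the other direction, at 19.1 to 23.0 against 8.77 to 14.8 FPKM (1.17), followed by the motor gene Kif3b (1.05). Neither was called as deposited (0.85 and 0.73) or with upper-quartile scaling (0.998 and 0.877), and Kif3b was not with median-of-ratios scaling (0.96). The calls of this list moved with the scaling, to 8 and 0 with FPKM as deposited, where the median of all compared symbols was −0.21. The 19 motile cilia members gave 8 and 1 under that scaling, where 16.9% and 8.64% of all compared symbols were called.

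Markers of other cells that the dissections could hold were read beside the members. The counts of these lists stand against 13.4% of all compared symbols called towards hypothalamus and 14.5% towards hippocampus. Of 18 compared genes of ependymal cells, 7 were called higher in hypothalamus and 2 in hippocampus, with a median of −0.13. Ccdc153, Dynlrb2 and Tmem212, which are also in the list of other motile cilia genes, were among the 7. Without these 3, 4 of 15 were called towards hypothalamus and 2 towards hippocampus, and the median was 0.19. Six3, which also marks hypothalamus, read 0.575 to 1.19 FPKM in hippocampus and 7.96 to 15.5 FPKM in hypothalamus. Riiad1 read 2.58 to 3.63 FPKM in hippocampus and 24.3 to 44.9 FPKM in hypothalamus, and Vim, a filament gene of ependyma, tanycytes and other glia, read 26.6 to 127 against 183 to 410 FPKM. Tm4sf1 and Gli3 were the 2 called towards hippocampus, by 1.86 and 1.31, and Gli3 was not called with FPKM as deposited (0.90). Six3 passed the minimum through hypothalamus alone. Among 15 compared genes of tanycytes, the ependymal-lineage cells of the third ventricle floor, 4 were called higher in hypothalamus and 3 in hippocampus. All 4 (Rax, Gpr50, Nes and Adm) passed the minimum through hypothalamus alone, and of the other 11 none was called in that direction. Adm lost its call with upper-quartile (−0.91) and median-of-ratios scaling (−0.85). Rax, which marks tanycytes and the hypothalamus, read 1.70, 5.97 and 6.21 FPKM in hypothalamus replicates 1 to 3, and each of the 4 hippocampus values was 0. Gpr50 (−3.49) and Nes (−1.58) were also higher in hypothalamus, and Crym (3.43), Lhx2 (2.63) and Dio2 (1.05), which neurons or astrocytes also express, were higher in hippocampus. Dio2 was not called with FPKM as deposited (0.71), upper-quartile (0.84) or median-of-ratios scaling (0.92), or without replicate 1 of both tissues (0.92). Of 7 compared astrocyte genes, 3 were called higher in hypothalamus (Aldh1l1, Gjb6 and Aqp4, with differences of −1.30, −1.23 and −1.19) and 1 in hippocampus (Slc1a2, 1.89). Of 7 compared genes of neural progenitors, Dlx2, Nes and Dlx1 were called higher in hypothalamus and Prom1 in hippocampus. Nes passed the minimum through hypothalamus alone, and Prom1 was not called with FPKM as deposited (0.69), upper-quartile (0.83) or median-of-ratios scaling (0.91). The part of these cells in the members' difference was not tested. Among 8 male germ cell genes, Prm1, Prm2, Tnp1, Akap4 and Smcp were listed at 0 in all 7 libraries, and Tssk6, which passed the minimum through hypothalamus alone, was called higher in hypothalamus, at 9.61 to 16.7 against 0.299 to 0.455 FPKM.

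Choroid plexus epithelium, which also bears cilia, differed between hippocampus libraries far more than the members did. The summed level of the 18 choroid plexus genes was 5275, 144, 7177 and 2773 FPKM in hippocampus replicates 1 to 4 and 178 to 458 FPKM in hypothalamus, and Otx2 was listed at 0 in all 7 libraries. The mean log2(FPKM + 1) of the compared ones was 4.35, 1.33, 5.36 and 4.46 in hippocampus replicates 1 to 4, a range of 4.03. Replicate 2 carries most of that range. The mean log2(FPKM + 1) of the 19 members ranged over 0.39, at 2.09, 2.00, 2.31 and 1.92 in replicates 1 to 4. Replicate 3 was highest for both lists, while the lowest library was replicate 2 for choroid plexus genes and replicate 4 for the members. The part of choroid plexus in the members' values was not tested.

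**Figure D4:**
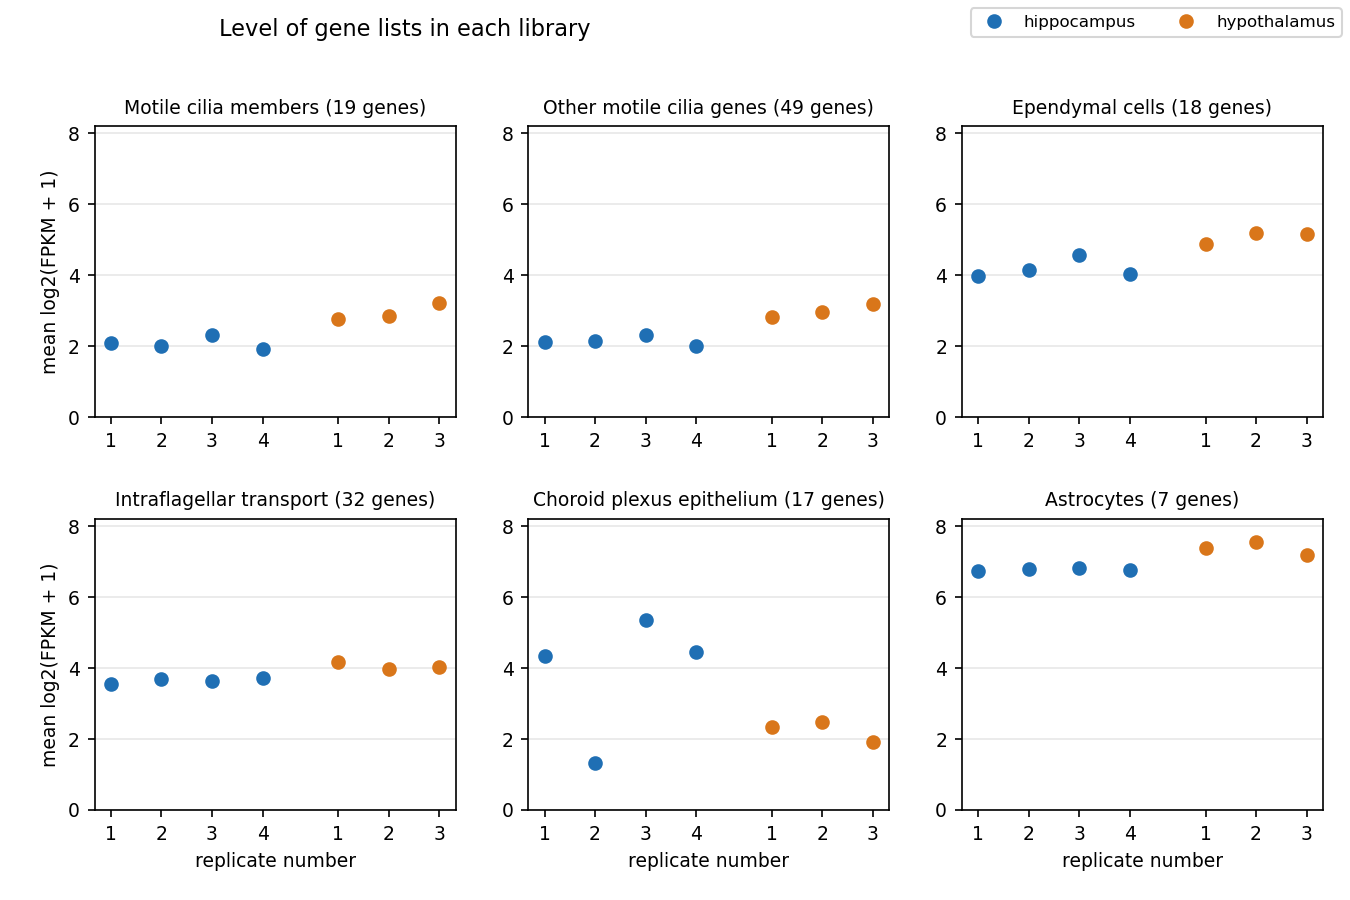
Mean log2(FPKM + 1) (vertical axis) of the members, other motile cilia, ependymal, intraflagellar transport, choroid plexus and astrocyte genes in each library, by replicate number (horizontal axis). Each of these 6 lists except choroid plexus lies higher in all 3 hypothalamus libraries than in the 4 hippocampus libraries on this deposited scale. Choroid plexus genes range from 1.33 to 5.36 among hippocampus libraries, and the tanycyte list, not drawn, overlaps between tissues (2.89 to 3.01 and 2.91 to 3.38).

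Replicates of a tissue were compared last, on the deposited values. The share of all symbols highest or lowest in each library was not counted. A shift of a whole library therefore cannot be told apart from one of the members. Summed FPKM was 443335 in hypothalamus replicate 1 and 471484 in replicate 3, the lowest and highest of that tissue. In hippocampus it was 372521 in replicate 3 and 388121 in replicate 4, neither the highest nor the lowest. In hippocampus, 11 of the 17 axonemal members were highest in replicate 3, and 9 were lowest in replicate 4. Replicate 3 was also highest for the choroid plexus list and for the ependymal list, at 4.56 against 3.98 to 4.14 in the others. In hypothalamus, 13 of the 17 were highest in replicate 3, at which the choroid plexus list was lowest (1.93 against 2.34 and 2.47), and 10 were lowest in replicate 1. The level of the 19 members was 2.77, 2.86 and 3.20 in hypothalamus replicates 1 to 3. Same-numbered libraries are not stated to share an animal.

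The median spread of members over replicates was above that of all symbols in both tissues, a difference that was not tested. The symbols were not matched to the members on level, so a trait of the members cannot be told apart from their level. All symbols at 1 FPKM in a tissue were used here, also those not found in the other tissue. In hippocampus the median SD of log2(FPKM + 1) was 0.29 for 16 members and 0.23 for all 10309 symbols. In hypothalamus it was 0.33 for 19 members and 0.25 for 10757 symbols. Over the members the SD ran from 0.10 (Foxj1) to 0.50 (Tekt3) in hippocampus. In hypothalamus it ran from 0.11 (Spag6) to 0.70 (Foxj1).

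**Figure D5:**
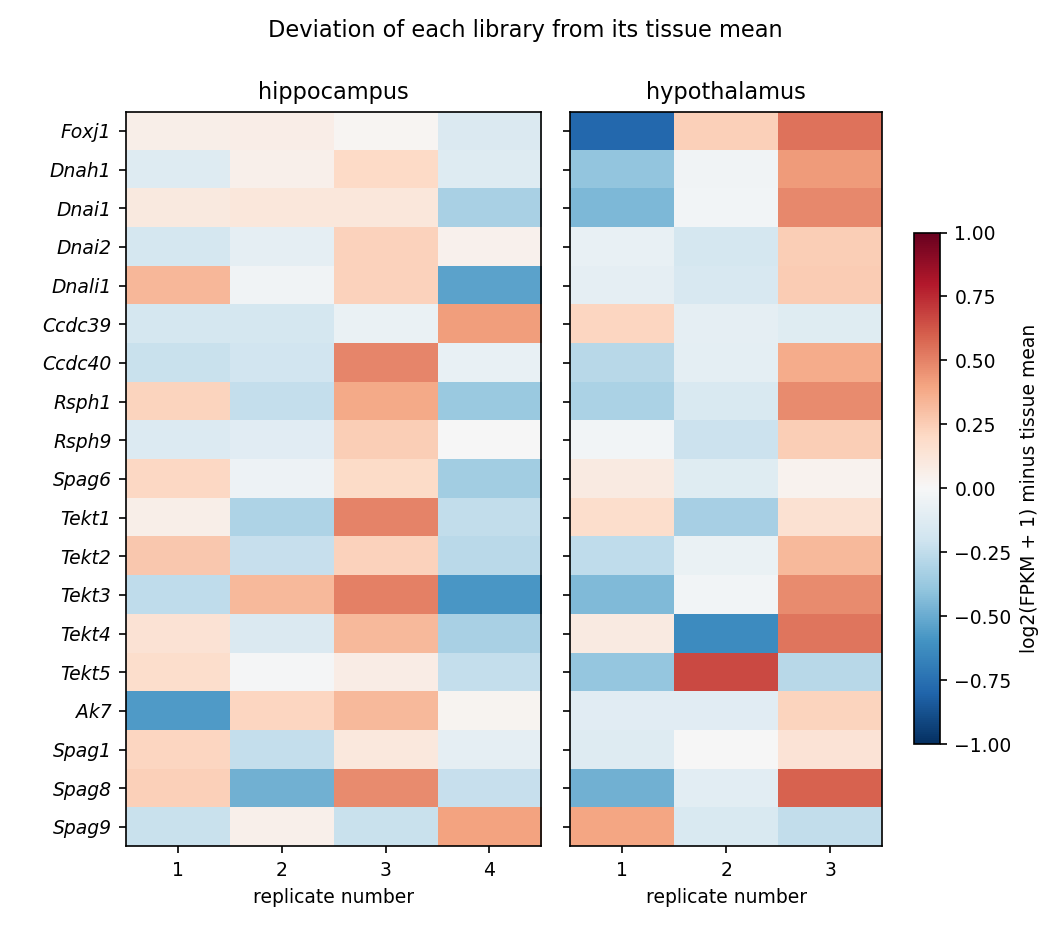
Deviation of each library (columns, by replicate number) from its tissue mean in log2(FPKM + 1) for the 19 compared members (rows), red above and blue below the mean. Replicate 3 is highest for 11 of 17 axonemal members in hippocampus and for 13 of 17 in hypothalamus. Foxj1 is near its mean in all hippocampus libraries. Values are as deposited, and the share over all symbols was not counted.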

How the data were processed

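Poly-A RNA of hippocampus and hypothalamus was sequenced, per the labels' protocols. The authors deposited FPKM as 1 table per tissue, each value followed by a status word, which serves as another column. Per the submitters' processing notes, TopHat, TopHat2, Bowtie, Bowtie2, Cufflinks and Cuffdiff were used with build rn5. The annotation, the strand setting and the normalization between libraries are not given in the sources used here. An FPKM of 0 can be a failed estimate, and no interval for counting error can be given.

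A locus was dropped where any of its libraries lacked the status OK (86 of 18087 loci in hippocampus, 24 of 17762 in hypothalamus). Each symbol was represented by its highest locus by mean FPKM, and tables were joined by symbol. Values were analysed with pandas 2.3.3 under Python 3.11.15, as the report describes. Lists were matched by symbol or by a RefSeq synonym (GRCr8). The call rule was run on simulated data, and the outcome is not given here. Members, lists and rules were chosen with earlier results of these data known. Named are the compared members that lay apart between tissues, Foxj1, Ccdc39 and Ccdc40, and up to 3 called genes of a list in each direction; other genes named were chosen after their values were seen. Alternatives were other pseudocounts, minimum levels, scalings, locus choices, and libraries left out. Another minimum level leaves a gene's value unchanged and cannot alter its call. Such alternatives are included in the counts given for Ak7, Dnai2 and Ccdc40.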

Additional observations from a re-analysis of the deposited data

Results flagged for a closer look

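Members with a value above 0 and the list levels, 32 results in all, were screened for a hippocampus library far from the other 3. Dixon's ratio (distance to the closest other value over the full range) passed its 95% critical value for 4 of the 32. Chance marks about 1 in 20, or 1.6 of 32. Ccdc39 was highest in replicate 4 (ratio 0.839), at 5.01 FPKM against 2.98 to 3.31 FPKM. Ccdc40, its partner, was highest in replicate 3 (ratio 0.830), at 2.37 FPKM against 1.07 to 1.29 FPKM. Dnai1 was lowest in replicate 4 (ratio 0.951), at 1.40 FPKM against 2.20 to 2.24 FPKM. Spag11c was above 0 in replicate 4 alone (ratio 1), at 0.161 FPKM. With the other 3 values at 0, its ratio is 1 whatever the value in replicate 4.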

How the results depend on the processing

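No paired analysis was possible because the labels do not tie same-numbered libraries to an animal, and the tissue difference was given without a test, a choice made since the normalization across the tables is not given. All 11 members that lay apart towards hypothalamus, and Foxj1 towards hippocampus, kept their sign and their separation in every alternative that compared them. Spag9 lay apart in 13 of 21. Other pseudocounts and minimum levels cannot change the order of the libraries, and leaving out a library removes values that could overlap. For those alternatives the outcome was largely fixed in advance, which leaves mainly the scalings and the handling of loci. The number called towards hypothalamus, 8, became 3 with a pseudocount of 5, the other settings giving 7 to 11, and leaving out a library gave 7 to 10. The number called towards hippocampus, 1, became 2 with loci of any status kept, which adds Spag5, and 2 with current RefSeq symbols, which adds Spef1. The median difference of −0.91 became −0.60 with a pseudocount of 5, −1.18 at a minimum of 5 FPKM and −0.68 with no minimum, and ran from −1.07 to −0.77 when a library was left out. The range of the members' level was 0.63 (pseudocount 0.1) and 0.16 (pseudocount 5) in hippocampus in place of 0.39. Leaving out a library gave 0.17 to 0.39 in hippocampus, lowest without replicate 3, and 0.086 to 0.42 in hypothalamus, lowest without replicate 3. Of all symbols called, 52.0% were higher in hippocampus, against 33.8% with FPKM as deposited. Low members such as Spag16 and Spef2 are limited by the unknown depth.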
